A study of Mus musculus with 15 samples.

Results

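Donepezil, an inhibitor of acetylcholinesterase, was compared with physiological saline in mouse hearts under pressure overload. The comparison holds 10 of the 15 RNA sequencing libraries of the series, 5 titled as donepezil and 5 titled as saline, and the groups follow those titles. The mice were wild type C57BL/6, aged 8 to 10 weeks, and all of them had transverse aortic constriction (TAC), in which a band on the aorta makes the left heart pump against a raised pressure. After 4 weeks with the band the survivors were randomised, 15 mice a group, to donepezil at 5 mg/kg/day, to encenicline (EVP-6124), which activates the nicotinic receptor made from Chrna7, at 2 mg/kg/day, or to saline, taken by mouth with the water. The donepezil and saline hearts share the strain, the band and the age, and the labels give all of them as TAC 8 weeks. No unoperated heart is among the libraries, so every difference below is one between banded hearts. Of 54532 genes in the table, 13396 reached 0.5 FPKM in at least 5 of the 15 libraries and were tested. FPKM values are fragment counts scaled by gene length and a library size, so levels can be set beside each other between genes.

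Reads recovered from the FPKM values came to between 15028535 and 16188629 per donepezil library and between 14709427 and 16749517 per saline library. The library size that the FPKM values imply was not this total. It was 1.15 times the total in donepezil 4 and 0.939 to 0.991 times in the other donepezil libraries. In the saline libraries it was 0.999 to 1.12 times the total. Whether a library stands for 1 mouse is not given in the labels, and p-values measure the spread between libraries, which may in part be technical. Cardiomyocyte markers were abundant throughout: 10 of them summed to between 16240 and 22650 FPKM with donepezil and between 18010 and 24170 with saline. The 10 atrial markers summed to between 138 and 168 FPKM with donepezil and between 127 and 161 with saline, and 8 of them reached the level for testing. That level was not reached by 6 of 7 lung epithelium markers, 7 of 10 skeletal muscle markers and 8 of 10 adipocyte markers. The skeletal muscle markers still summed to between 287 and 464 FPKM with donepezil and between 368 and 506 with saline. Adipocyte markers summed to at most 33.5 FPKM with donepezil and 28.4 with saline, and lung markers to at most 2.19 and 1.55. Myh4 and Tnnc2 of fast skeletal muscle and Sftpd of lung were at 0 in all libraries. A pair of donepezil libraries needs naming before the results. The library titled donepezil 1 carries saline in its treatment field, and the one titled encenicline 1 carries donepezil. Grouping by that field, which moves both libraries, left 0 genes that passed by limma, with 1323 at an unadjusted p under 0.05. In Pdk4, the gene with the highest fold change by title, donepezil 1 had 1186 FPKM. The other 4 donepezil libraries had 668 to 854 and the saline libraries 101 to 197. Pdk4 was picked with donepezil 1 counted as donepezil, but it also passed with that library left out (log2 fold change 2.61, limma adjusted p = 3.14e-05). Encenicline 1 had 176 FPKM, and the encenicline libraries ranged from 168 to 300. Which label is right was not tested.

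Library donepezil 4 stood apart from the rest. It had reads in 25893 genes, against 19789 to 20439 in the other donepezil libraries and 19931 to 20667 in the saline libraries. In 3454 genes it was the only one of the 15 libraries with a read, usually 1 read, where every other library had between 126 and 273 such genes. Its collagen and matrix genes summed to 3004 FPKM, against 653 to 823 in the other donepezil libraries and 666 to 1346 in the saline libraries. Nppa, the atrial natriuretic peptide gene that rises under wall stress, was at 857 FPKM in it, against 92.5 to 112 in the other donepezil hearts and 36.2 to 287 with saline. Its mitochondrially encoded reads were 17.4% of the total, the lowest share of the 15. Its macrophage markers summed to 630 FPKM, against 268 to 365 in the other donepezil libraries and 328 to 527 with saline. In RNA from heart tissue, more or fewer cells of a type and more or less RNA per cell cannot be told apart. Where leaving out donepezil 4, donepezil 1 or both changes the number of genes that passed in a list, those counts are given with it.

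**Figure D1:**
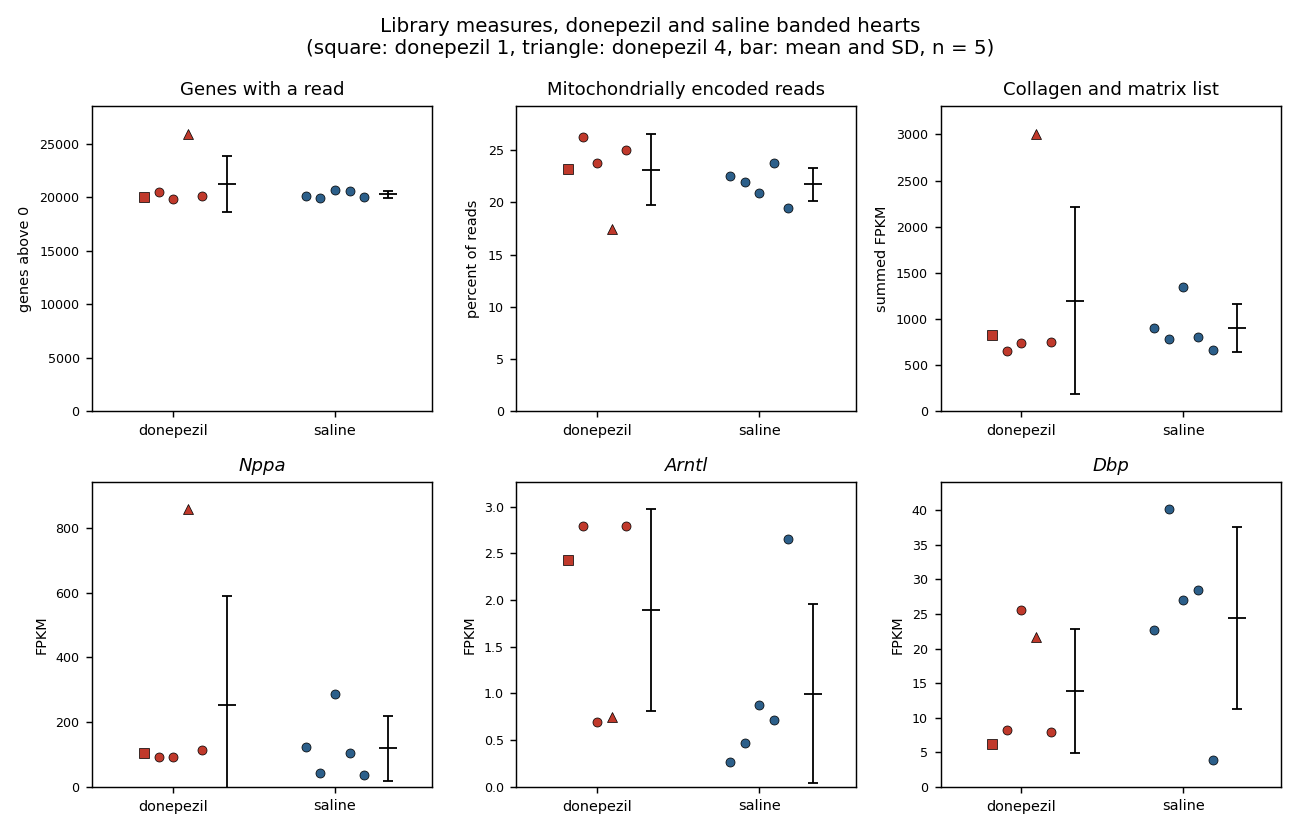
Library measures in donepezil (left) and saline (right) hearts, 1 point per library, with the mean and SD of 5 libraries (the lower end of the Nppa bar is cut at 0): genes with a read, percent of reads that are mitochondrially encoded, summed FPKM of the matrix list, and FPKM of Nppa, Arntl and Dbp. Donepezil 4, the triangle, lies above all others in genes with a read, matrix and Nppa, while Arntl and Dbp spread widely within both groups.

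Acetylcholine released by vagal nerves slows the heart through the muscarinic receptor encoded by Chrm2, and acetylcholinesterase ends its action. The gene lists below include programmes known from fasting and stress hormones. Glucocorticoids act through a nuclear receptor that binds DNA as a pair and induces genes such as Fkbp5 and Map3k6. FoxO factors are held outside the nucleus by insulin signalling and, when released, induce genes of protein breakdown and autophagy. Fatty acids activate PPAR receptors, which induce genes that burn fat and spare glucose.

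Promoter windows are shown for genes that rose and whose window held a motif of a factor known to act on them. The windows come from RefSeq on GRCm38.p6, and the 250 bases before the start were searched on both strands for 5 motifs. The glucocorticoid receptor motif, GNACA and its inverted repeat TGTNC with 3 bases between them, was present in 0.44% of 27025 genes with a window and in 0.358% of the 9502 tested genes with one. It was found in 3 of the 13 glucocorticoid-induced genes that passed and had a window, namely Slc10a6, Map3k6 and Mt1, and in 5 of the 25 tested ones with a window, the others being Fam107a and Sgk1. The window of Txnip held both this motif and the FoxO motif GTAAACA, which 3.54% of all windows hold. The FoxO motif was found in 1 of the 7 FoxO list genes that passed and had a window and in 2 of the 21 tested ones, and also in the window of Gbp3, a gene that fell. Chac1 held TGATGCAA, the element of ATF4, on the other strand, which 0.918% of all windows and 4 of the 23 windows of the integrated stress response list hold. The PPAR motif, AGGTCA and its direct repeat with 1 base between them, was present in 0.0407% of all windows and in 0 of the 25 windows of the PPAR list. Capitals mark the match in each stretch, written 5′ to 3′ on the gene's own strand, with the match beginning 163 bases before the start in Slc10a6, 181 in Map3k6, 94 in Mt1, 172 and 121 in Txnip and 193 in Chac1. A match is a description of the letters, not a shown binding site.
Slc10a6, chr5:103629524-103629596, minus strand: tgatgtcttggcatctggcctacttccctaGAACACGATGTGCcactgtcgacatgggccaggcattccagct
Map3k6, chr4:133240607-133240679, plus strand: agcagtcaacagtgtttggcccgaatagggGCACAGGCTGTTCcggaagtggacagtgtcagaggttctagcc
Mt1, chr8:94178965-94179037, plus strand: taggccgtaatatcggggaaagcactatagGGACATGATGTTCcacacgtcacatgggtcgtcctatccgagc
Txnip, chr3:96557755-96557872, plus strand: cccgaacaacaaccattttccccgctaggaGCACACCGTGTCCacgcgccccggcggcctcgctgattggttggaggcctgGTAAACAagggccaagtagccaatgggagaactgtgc
Chac1, chr2:119351019-119351086, plus strand: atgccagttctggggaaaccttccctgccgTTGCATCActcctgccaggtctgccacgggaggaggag

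In the donepezil hearts, 15 glucocorticoid-induced genes rose, against 6 without donepezil 1 and 3 without both donepezil 1 and donepezil 4. Some genes of fat burning and autophagy rose too. The genes of the transferrin receptor and of the first step of heme synthesis fell, but the first of these did not pass without both libraries. Some endothelial genes fell and others rose. Of interferon-inducible GTPase and antigen presentation genes 6 fell, and of type I interferon genes 2, against 0 and 1 without donepezil 1. By limma on log2(FPKM + 0.5), fitted to all 15 libraries and adjusted by Benjamini-Hochberg over all 13396 genes, 284 genes passed an adjusted p of 0.05, or 2.12% of those tested. Of these 158 were higher (1.18%) and 126 lower (0.941%), and with only the 10 donepezil and saline libraries in the fit 63 passed, 35 higher and 28 lower. Of the 158 higher genes 103, and of the 126 lower genes 103, are in none of the gene lists used below. Most changes were modest: 72 of the higher and 62 of the lower were under 1.5-fold, while 32 and 13 reached 2-fold. The groups did not overlap in 207 of the 284. Among all tested genes 283 (2.11%) had every donepezil library above every saline library, and 240 (1.79%) had the reverse. The split depends on the scaling: with values rescaled to TPM 56 were higher and 106 lower, and with voom on the recovered reads 106 and 173, and the median of all genes lay at -0.07 and -0.06 under these, against -0.0016 here. All 284 kept their direction in each alternative in which they were tested, with both donepezil 1 and donepezil 4 left out too, but the number that passed was 55 higher (0.411%) and 50 lower (0.373%) without donepezil 1, 214 higher (1.6%) and 195 lower (1.46%) without donepezil 4, and 48 higher (0.358%) and 42 lower (0.314%) without both. Of the 284, 102 passed without donepezil 1, 247 without donepezil 4 and 73 without both. Below, rose and fell are used of genes that passed with all 10 libraries. Values after these words, bare values in brackets and list medians are log2 fold changes, donepezil over saline.

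**Figure D2:**
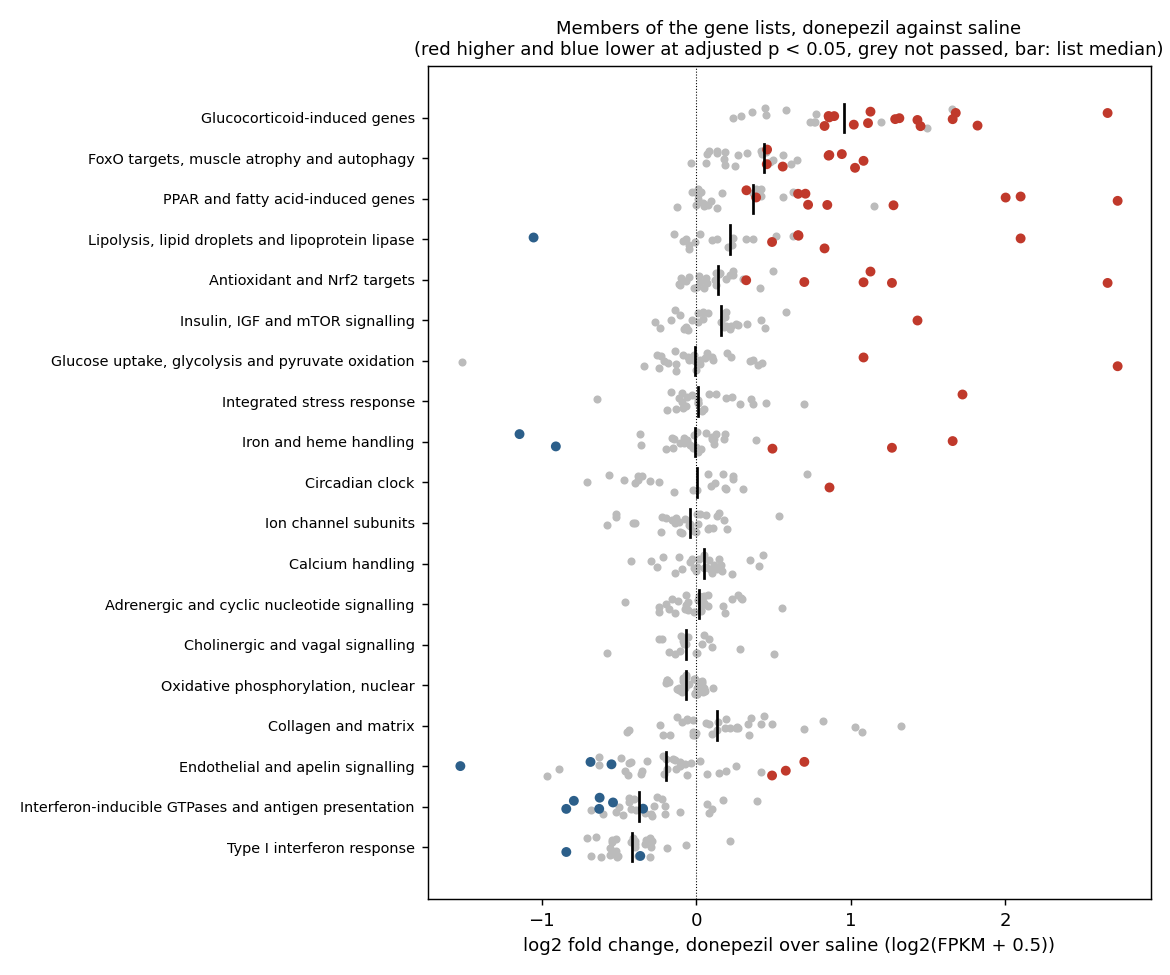
Log2 fold change (donepezil over saline, on log2(FPKM + 0.5)) of each tested member of 19 gene lists, 1 point per gene, red where it rose, blue where it fell, grey where it did not pass, with the list median as a bar. The glucocorticoid list has its median at 0.96 and the type I interferon list at -0.42, while the ion channel list lies at -0.04 and the calcium handling list at 0.05.

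Among glucocorticoid-induced genes 15 of 28 tested members rose and 0 fell. The list median was 0.96 on the log2 scale, against -0.0016 over all genes, and all 28 values were positive. This list, like the others, was chosen with earlier results of these data known, so its counts are not an independent test. Map3k6, a stress-activated kinase, had 17.2, 23.1, 15.6, 11.2 and 9.09 FPKM in the donepezil libraries and 10.4, 5.1, 4.64, 3.62 and 5.63 in the saline libraries. Its groups met only at 1 point: saline 1 lay above donepezil 5, and all other donepezil libraries were above all saline libraries (log2 fold change 1.32, SE 0.26, limma adjusted p = 0.0168). Slc10a6, a transporter of sulfated steroids, had 9.51, 10.6, 8.17, 4.67 and 4.1 FPKM with donepezil and 3.97, 0.877, 0.883, 0.562 and 4.08 with saline. Every donepezil library was above every saline library, though donepezil 5 and saline 5 differed by less than 0.1 FPKM (1.82, SE 0.40, limma adjusted p = 0.0276). Rasd1, a small GTPase first known as induced by dexamethasone, had 7.21, 7.24, 5.98, 5.51 and 3.0 FPKM with donepezil and 1.74, 1.61, 2.19, 1.59 and 1.49 with saline. Here the gap was clear, with the lowest donepezil library above the highest saline library (1.45, SE 0.19, limma adjusted p = 0.00193). Map3k6 (ENSMUSG00000028862) lies on chromosome 4 at 133240818 to 133252929, Slc10a6 (ENSMUSG00000029321) lies on chromosome 5 at 103605711 to 103629403 and Rasd1 (ENSMUSG00000049892) lies on chromosome 11 at 59963181 to 59964944, all on GRCm38.

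Other members of the list act on signalling and transcription. Klf15, a transcription factor of amino acid and fat metabolism, averaged 34.3 ± 8.28 FPKM in donepezil hearts and 19 ± 6.19 FPKM in saline hearts (mean ± SD over 5 libraries each, as below; log2 fold change 0.86). Cebpd, a transcription factor of the acute phase, averaged 19.6 ± 4.68 FPKM with donepezil and 8.73 ± 2.04 with saline (1.11). Ddit4, which restrains the growth kinase mTORC1, averaged 122 ± 34.5 FPKM with donepezil and 48.9 ± 27 with saline (1.43), and its saline 5 library, at 85.2 FPKM, lay inside the donepezil range of 81.0 to 172. Errfi1, an inhibitor of the EGF receptor, rose by 1.02 and Arrdc3, an arrestin-like protein, by 0.89. The clock gene Per1 rose by 0.86, Fkbp5, a cochaperone that restrains the glucocorticoid receptor, by 1.29, and Plin4, a lipid droplet protein, by 0.83. The metal-binding Mt2 had 42.3, 41.7, 39.3, 53.7 and 27.2 FPKM with donepezil and 11.4, 7.13, 17.1, 6.8 and 0.407 with saline, where saline 5 was far under the other 4. Cdkn1a, an inhibitor of the cell cycle, had 70.3, 96.7, 33.1, 29.8 and 60.2 FPKM with donepezil and 22.2, 8.65, 20.4, 9.95 and 27.2 with saline (1.68). Both rose with no overlap, although the spread of Cdkn1a inside the donepezil group was wide. Mt1, the second metallothionein, and Lcn2, which binds bacterial siderophores, complete the 15, and the Lcn2 values overlapped where saline 1, at 3.46 FPKM, lay above donepezil 5, at 3.25.

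The other 13 members of the list did not pass. Fam107a, at 11.3, 15.2, 11.4, 6.67 and 3.82 FPKM with donepezil and 8.15, 1.31, 2.1, 1.2 and 2.69 with saline, had a log2 fold change of 1.66 and a limma adjusted p of 0.0578. Its saline 1 library, at 8.15 FPKM, lay among the donepezil libraries. Zbtb16 (1.2), Klf9 (0.74), Tsc22d3 (0.77) and Sgk1 (0.45) also missed the threshold, as did the early gene Dusp1 at 0.24. Among the 12 tested genes of the receptor itself and steroid handling only Fkbp5 passed, and it no longer did without both donepezil 1 and donepezil 4. Nr3c1, the glucocorticoid receptor gene, averaged 8.74 ± 0.796 FPKM with donepezil and 10.9 ± 1.09 with saline (-0.30, 95% interval -0.50 to -0.11, limma adjusted p = 0.105). Hsd11b1, which regenerates active glucocorticoid in tissue, had a log2 fold change of 0.27, with an interval of -0.13 to 0.67. Without donepezil 4 the number that rose was 16, without donepezil 1 it was 6 and without both it was 3, with medians of 0.98, 0.91 and 0.95.

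**Figure D3:**
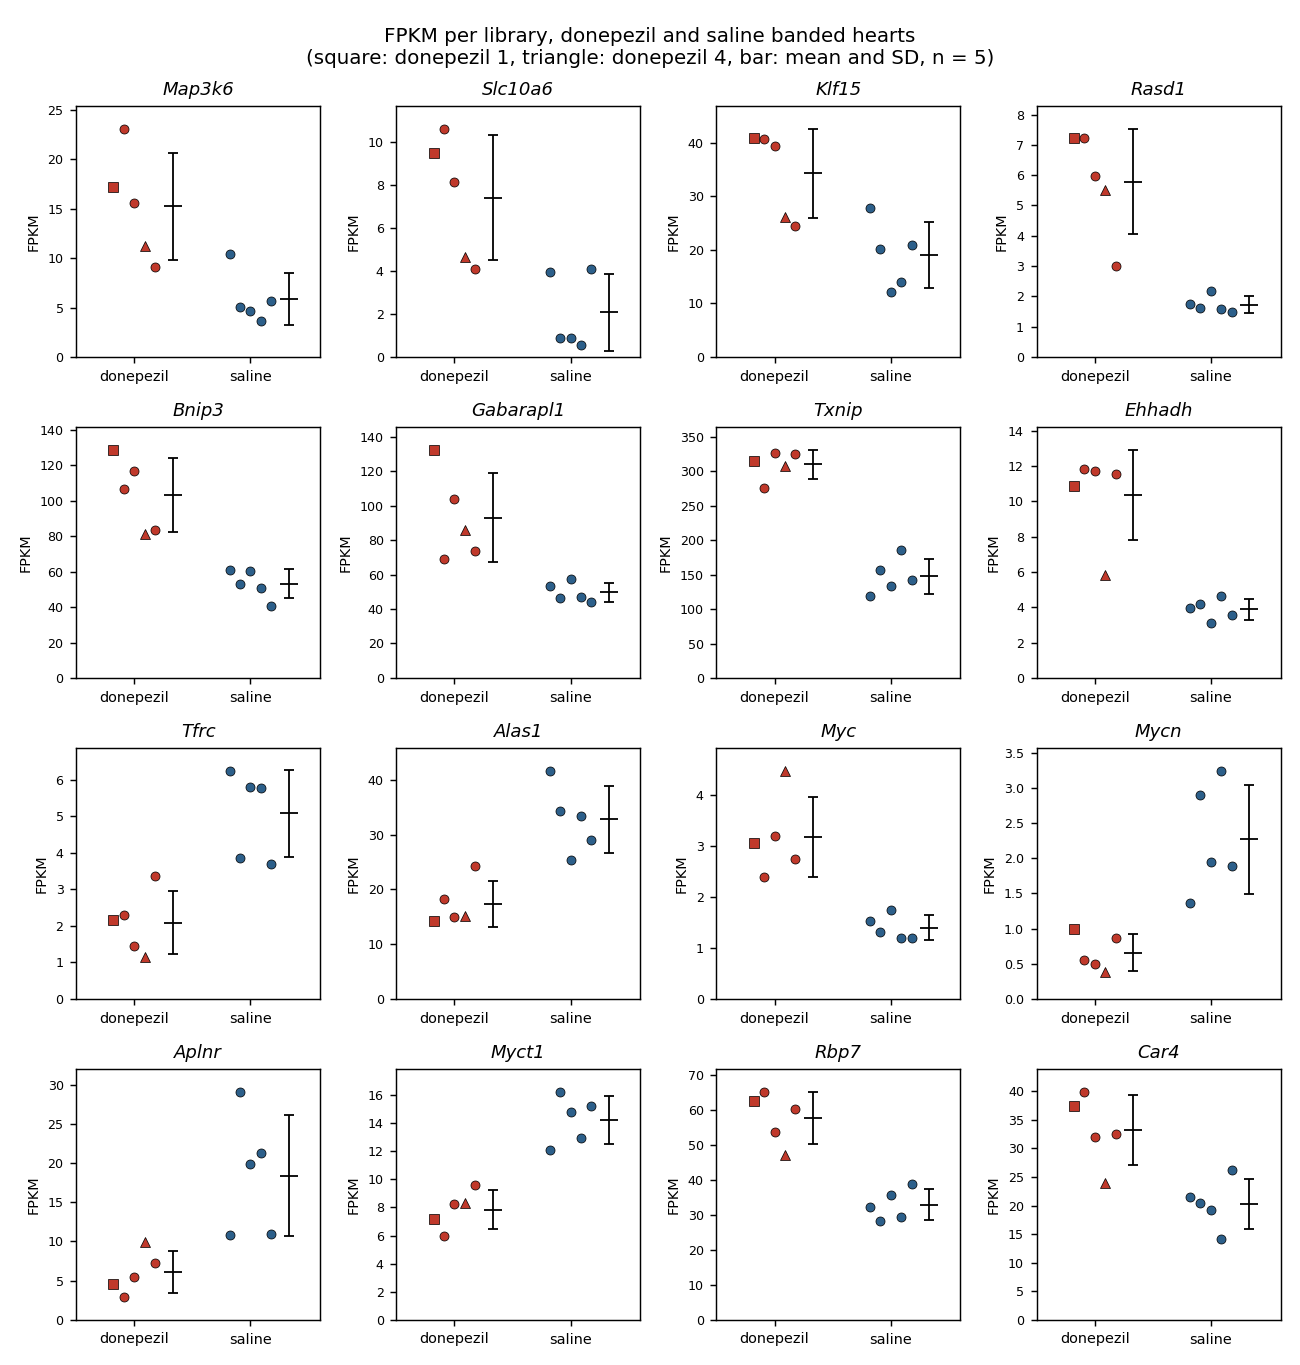
FPKM of 16 genes in each donepezil (left) and saline (right) library, on linear axes from 0, with the mean and SD of 5 libraries as bars; the square is donepezil 1 and the triangle donepezil 4. Rasd1, Bnip3, Txnip, Ehhadh, Myc and Rbp7 lie higher in all 5 donepezil libraries, and Tfrc, Alas1, Mycn, Aplnr and Myct1 lie lower in all 5, while Map3k6, Klf15 and Car4 overlap.

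Genes of muscle protein breakdown and autophagy were among those that rose. Of 28 tested FoxO targets, atrophy and autophagy genes 8 rose and 0 fell, with a median of 0.44, and 27 of 28 were positive. Bnip3, a receptor that marks mitochondria for autophagy, had 129, 106, 117, 81.4 and 83.4 FPKM with donepezil and 60.7, 53.1, 60.6, 51 and 40.5 with saline. Gabarapl1, which coats the autophagosome membrane, had 132, 68.9, 104, 85.8 and 73.6 FPKM with donepezil and 53.5, 46.6, 57.4, 46.8 and 44 with saline. Neither gene's groups overlapped, and the log2 fold changes were 0.94 (SE 0.13, limma adjusted p = 0.00257) and 0.86 (SE 0.14, limma adjusted p = 0.00806). Txnip, which binds thioredoxin and slows glucose uptake, had 315, 275, 327, 308 and 326 FPKM with donepezil and 119, 157, 133, 186 and 142 with saline. Its donepezil libraries all lay well above the saline ones (1.08, SE 0.16, limma adjusted p = 0.00312). Bnip3 (ENSMUSG00000078566) lies on chromosome 7 at 138890836 to 138909519 and Txnip (ENSMUSG00000038393) lies on chromosome 3 at 96557957 to 96561883, on GRCm38.

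The cargo receptor Sqstm1, at 211 ± 24.8 FPKM with donepezil and 142 ± 4.82 with saline, rose by 0.56. Atg14, a subunit of the lipid kinase that starts autophagosomes, averaged 3.58 ± 0.291 FPKM with donepezil and 2.47 ± 0.313 with saline and rose by 0.46. Fbxo32, the muscle ubiquitin ligase atrogin-1, had 36.2, 25.9, 38.1, 31.1 and 23.5 FPKM with donepezil and 17.4, 14.1, 14.8, 12.7 and 14.7 with saline, a rise of 1.03 with no overlap. A further ligase of the list, Fbxo30, rose by 0.46, and Klf15 is counted here too. Trim63, the other classical ligase of muscle atrophy, did not pass: it had 126, 33.7, 107, 83.9 and 46.5 FPKM with donepezil and 43.5, 46, 38.7, 46.4 and 50.6 with saline. Donepezil 2 and donepezil 5 lay within or under the saline values, and the other 3 lay above them. The factors themselves had log2 fold changes of 0.27 for Foxo1 and 0.56 for Foxo3, neither past the test.

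Outside the list, and chosen after their values were seen, 3 more genes of autophagosome formation rose. Atg13, of the kinase complex that starts the process, averaged 27.6 ± 2.39 FPKM with donepezil and 17.4 ± 2.44 with saline (0.66). Its partner Atg101 averaged 18.9 ± 1.37 FPKM with donepezil and 13.5 ± 1.76 with saline (0.48), and the lipid binder Wipi2 5.79 ± 0.334 FPKM with donepezil and 4.82 ± 0.273 with saline (0.24, limma adjusted p = 0.0497). The Wipi2 call ended in 19 of 25 alternatives. The number of FoxO list members that rose was 11 without donepezil 4, 7 without donepezil 1 and 6 without both, at medians of 0.40, 0.37 and 0.27. Of 31 genes of insulin and growth factor signalling only Ddit4 rose, a call lost without donepezil 1 and without both. The insulin receptor Insr and its substrate Irs2 had values of 0.18 and 0.42 that did not pass.

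**Figure D4:**
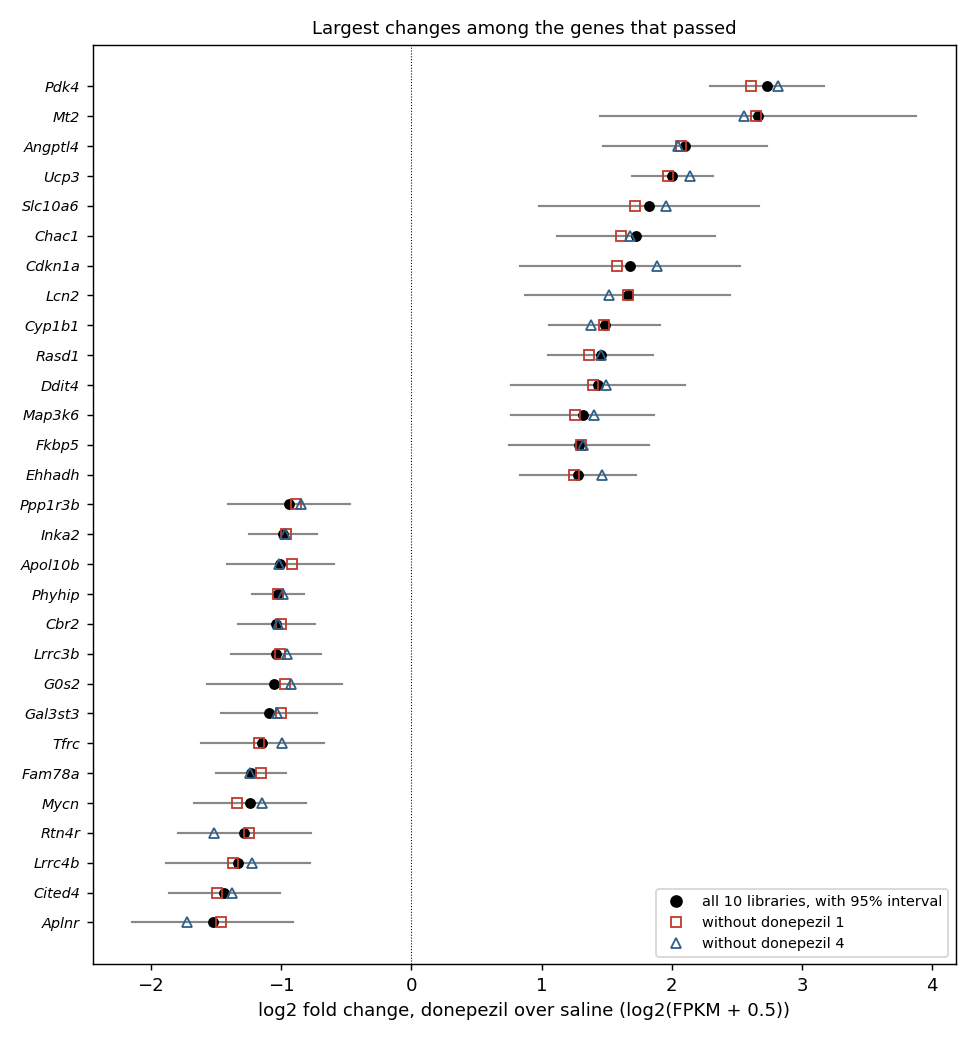
Log2 fold change, donepezil over saline, of 14 genes with the highest and 15 with the lowest values among protein-coding genes that passed with a mean of at least 1 FPKM. Black points with 95% intervals use all 10 libraries, red squares leave out donepezil 1 and blue triangles leave out donepezil 4. Each value without donepezil 1 or donepezil 4 lies within its interval.

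Genes induced by fatty acids through PPAR rose in part: the peroxisomal enzyme gene Ehhadh and the lipid droplet gene Plin2 were among them. Of 31 tested PPAR and fatty acid-induced genes 10 rose and 0 fell, with a median of 0.37, and 29 were positive. Ehhadh, an enzyme of peroxisomal fatty acid oxidation, had 10.8, 11.8, 11.7, 5.84 and 11.6 FPKM with donepezil and 3.95, 4.2, 3.09, 4.63 and 3.55 with saline. Donepezil 4 was the lowest of its group and still above every saline library (1.28, SE 0.21, limma adjusted p = 0.00738). Ehhadh (ENSMUSG00000022853) lies on chromosome 16 at 21761287 to 21787807 on GRCm38.

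The 3 members of the list with the smallest adjusted p also had its largest fold changes. Pdk4, a kinase that restrains pyruvate oxidation, had 1186, 854, 789, 668 and 814 FPKM with donepezil and 143, 113, 197, 101 and 104 with saline. Ucp3, an uncoupling protein of muscle, had 56.3, 65.2, 51.2, 34.8 and 55 FPKM with donepezil and 11.7, 15.5, 11.7, 12.9 and 10.9 with saline. Angptl4, an inhibitor of lipoprotein lipase, had 16.3, 12, 10.6, 17.2 and 19.9 FPKM with donepezil and 1.85, 4.8, 3.86, 2.36 and 3.2 with saline. The lowest donepezil library was above the highest saline library in each, by more than 2-fold.

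Slc25a34, a carrier of the inner mitochondrial membrane, averaged 111 ± 24.7 FPKM with donepezil and 66.8 ± 8.77 with saline (0.71). Ucp2, an inner membrane carrier, rose by 0.72, with donepezil 5 at 15.5 FPKM inside the saline range of 11.2 to 16.5. Cpt1a, of fatty acid entry into mitochondria, rose by 0.39, whereas the enzymes of the spiral itself lay near 0: Acadm at 0.05, Acadl at 0.01, Acadvl at 0.05, Hadha at 0.14 and Acaa2 at -0.12, none past the test. Cpt1b, of the same entry step, stood at 0.0002 and averaged under 1 FPKM. Neither Ucp2 nor Cpt1a passed without donepezil 4 (limma adjusted p = 0.0548 and 0.0545) or without donepezil 1 (limma adjusted p = 0.0847 and 0.0684). The cofactor gene Ppargc1a stood at 0.03 and Ppara at 0.37, with an interval of -0.23 to 0.97. The number that rose was 14 without donepezil 4, 6 without donepezil 1 and 9 without both, and the median stayed at 0.34 to 0.37.

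Of 22 genes of lipolysis, lipid droplets and lipoprotein lipase 5 rose and 1 fell, with a median of 0.22. Lipe, hormone-sensitive lipase, had 14.2, 17.8, 16.4, 10.8 and 12.8 FPKM with donepezil and 9.18, 9.3, 7.98, 6.87 and 11.1 with saline, where saline 5 overlapped donepezil 4 (0.66, limma adjusted p = 0.0174). The gene that fell, G0s2, encodes an inhibitor of the main triglyceride lipase. It had 26.4, 38.6, 31.1, 23.6 and 56.4 FPKM with donepezil and 58.6, 88.5, 48.9, 61.1 and 109 with saline, so that donepezil 5 reached into the saline range (-1.05, SE 0.24, limma adjusted p = 0.0371, and 0.0563 without donepezil 4). Pnpla2, that lipase, averaged 196 ± 35.6 FPKM with donepezil and 136 ± 24.7 with saline and did not pass (0.52, limma adjusted p = 0.089, and 0.0263 without donepezil 4). Plin2, the coat protein of droplets, rose by 0.66, and Gpihbp1, which holds lipoprotein lipase on the capillary wall, by 0.49. Lpl itself had a value of 0.21, or 0.33 without donepezil 4, and passed in neither. In this list 8 rose and 0 fell without donepezil 4, 3 rose and 0 fell without donepezil 1, and 4 rose and 0 fell without both.

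Of 34 genes of glucose uptake, glycolysis and pyruvate oxidation 2 rose, Pdk4 and Txnip, and 0 fell, with a median of -0.01. Both are known to restrain glucose use. Slc2a4, the insulin-responsive glucose transporter, averaged 102 ± 15 FPKM with donepezil and 113 ± 17.2 with saline (-0.14, interval -0.39 to 0.11). Ppp1r3b, which targets a phosphatase to glycogen, was among the 15 largest falls, at 2.24, 3.58, 1.78, 1.98 and 4.74 FPKM with donepezil and 5.61, 6.36, 4.16, 5.19 and 7.26 with saline. Donepezil 5 lay above saline 3 in this gene, and it no longer passed without donepezil 4 (limma adjusted p = 0.060) or without donepezil 1 (limma adjusted p = 0.0996). Slc16a1, the lactate and ketone carrier, averaged 43.9 ± 7.15 FPKM with donepezil and 58.4 ± 4.14 with saline and fell by 0.42 on the log2 scale, a gene chosen after its values were seen. It did not pass without donepezil 4, without donepezil 1 or without both (limma adjusted p = 0.054, 0.080 and 0.122).

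Of 24 genes of amino acid transport and breakdown 2 rose and 1 fell. Glul, which makes glutamine, had 265, 232, 262, 200.5 and 184 FPKM with donepezil and 168, 128, 122, 118 and 153 with saline (0.73, limma adjusted p = 0.00901). Cdo1, which opens the path from cysteine to taurine, averaged 3.21 ± 1.08 FPKM with donepezil and 1.17 ± 0.471 with saline (1.15, limma adjusted p = 0.0497). The fall was in Slc16a10, a carrier of aromatic amino acids, at 1.97 ± 0.187 FPKM with donepezil and 2.84 ± 0.388 with saline (-0.43). None of these groups overlapped, though the Cdo1 call ended in 17 of 25 alternatives. Without donepezil 1, and without both, only Glul of these 3 passed.

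Genes of iron and heme moved in both directions, with 3 of 32 tested members up, 2 down and a median of -0.01. Tfrc, the transferrin receptor through which cells take up iron, had 2.16, 2.31, 1.46, 1.15 and 3.36 FPKM with donepezil and 6.24, 3.87, 5.79, 5.78 and 3.7 with saline. Alas1, the first enzyme of heme synthesis, had 14.2, 18.2, 14.9, 15.2 and 24.2 FPKM with donepezil and 41.6, 34.4, 25.4, 33.5 and 29 with saline. In both genes the highest donepezil library, donepezil 5, lay below the lowest saline library (-1.14, SE 0.22, limma adjusted p = 0.0163 for Tfrc, and -0.91, SE 0.14, limma adjusted p = 0.00599 for Alas1). Hmox1, which breaks heme down, had 39.1, 16.2, 28.2, 28.7 and 14.8 FPKM with donepezil and 11.8, 9.34, 12.7, 9.0 and 6.36 with saline (1.27), with donepezil 1 the highest. Slc40a1, the iron exporter ferroportin, averaged 4.06 ± 0.446 FPKM with donepezil and 2.77 ± 0.595 with saline (0.49). The ferritin chains that store iron did not pass, at -0.01 for Fth1 and 0.18 for Ftl1, and neither did the later enzymes of heme synthesis. Without donepezil 4, 3 rose and 3 fell. Without donepezil 1 the 3 rises no longer passed, and Tfrc and Alas1 did. Without both, Alas1 passed and Tfrc did not (limma adjusted p = 0.0698), and Steap3, a reductase of endosomal iron that had not passed with all libraries, did. Tfrc (ENSMUSG00000022797) lies on chromosome 16 at 32608920 to 32632794 and Alas1 (ENSMUSG00000032786) lies on chromosome 9 at 106233455 to 106248654, on GRCm38.

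Several regulators of growth and of cardiac identity changed in opposite directions. Myc had 3.06, 2.39, 3.2, 4.48 and 2.75 FPKM with donepezil and 1.54, 1.32, 1.75, 1.19 and 1.19 with saline. Its relative Mycn had 0.999, 0.549, 0.50, 0.385 and 0.861 FPKM with donepezil and 1.36, 2.91, 1.94, 3.24 and 1.89 with saline. The groups were apart in both (0.94, SE 0.13, limma adjusted p = 0.00231 for Myc, and -1.24, SE 0.20, limma adjusted p = 0.00738 for Mycn), and Mycn lay near or under 1 FPKM with donepezil. These were the only ones of 27 genes of Myc and ribosome production to pass, and the list median was 0.07. Among the coregulators of the CITED family, Cited2 averaged 23.9 ± 4.66 FPKM with donepezil and 15.1 ± 2.95 with saline (0.65), while Cited4 was at 8.99, 7.19, 6.07, 6.42 and 9.76 FPKM with donepezil and 19.7, 23.5, 16, 19.8 and 29.8 with saline (-1.44). Irx4, a homeobox factor of the ventricle named after its values were seen, had 7.13, 8.64, 7.18, 6.52 and 9.38 FPKM with donepezil and 12.2, 16, 12.9, 12.6 and 15 with saline, with no overlap (-0.79, SE 0.10, limma adjusted p = 0.00209). Of 34 nuclear receptors and cardiac transcription factors 2 rose, Klf15 and Cited2, and 1 fell, Cited4. Klf15 did not pass without donepezil 1, and neither Klf15 nor Cited2 passed without both.

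In the contractile apparatus 1 of 27 sarcomere genes fell and 0 rose, with a median of -0.03. The gene was Myh7b, a myosin heavy chain whose gene hosts a microRNA, at 6.08, 6.74, 5.42, 4.62 and 7.18 FPKM with donepezil and 8.06, 9.21, 8.1, 12.7 and 11.7 with saline (-0.67, limma adjusted p = 0.0234, 0.0522 without donepezil 1 and 0.0916 without both donepezil 1 and donepezil 4). Lmod3, which builds thin filaments, and Fbxl22, an F-box protein of the Z-disc, fell by 0.62 and 0.78 on the log2 scale and were named after their values were seen. Of 22 genes of gap junctions and the intercalated disc only Pkp2, a desmosome protein, rose. It had 36, 30.8, 39.3, 37.8 and 29.9 FPKM with donepezil and 26.1, 25.7, 25.7, 27.8 and 21.6 with saline, with no overlap (0.44, SE 0.08, limma adjusted p = 0.0146, and 0.0772 without both donepezil 1 and donepezil 4). Without donepezil 4, 2 genes of this list rose. Among 13 small GTPases of the RGK and related families Rasd1 and Rhou rose, Rhou by 0.71. Without donepezil 4, 2 members of this list fell as well, and without both only Rasd1 passed.

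Endothelial genes went both ways, with more values below 0 than above. Of 36 tested endothelial and apelin genes 3 rose and 3 fell. The list median was -0.19, with 27 negative and 9 positive values. Aplnr, the apelin receptor, had 4.59, 2.94, 5.53, 9.96 and 7.22 FPKM with donepezil and 10.8, 29.1, 19.9, 21.3 and 10.9 with saline, and its highest donepezil library, donepezil 4, lay just under the lowest saline library (-1.53, SE 0.29, limma adjusted p = 0.0146). Kdr, the main VEGF receptor, had 26.9, 18.1, 21.6, 15.6 and 30.5 FPKM with donepezil and 28.9, 35.2, 40.3, 39.7 and 34.4 with saline, where donepezil 5 lay above saline 1 (-0.68, limma adjusted p = 0.0465, 0.0625 without donepezil 4 and 0.0542 without donepezil 1). Tcf15, a transcription factor of heart capillaries, averaged 47.5 ± 8.55 FPKM with donepezil and 69.2 ± 8.45 with saline (-0.55). From the marker list of endothelial cells Emcn, a surface mucin of capillaries and veins, fell as well, at 6.37, 5.07, 7.18, 6.38 and 6.57 FPKM with donepezil and 8.89, 9.2, 10.6, 9.43 and 11.3 with saline (-0.61, limma adjusted p = 0.00407). Myct1, an endothelial membrane protein named after its values were seen, had 7.15, 5.96, 8.28, 8.31 and 9.57 FPKM with donepezil and 12.1, 16.2, 14.8, 12.9 and 15.2 with saline, a clear gap (-0.83, SE 0.11, limma adjusted p = 0.00209). Aplnr (ENSMUSG00000044338) lies on chromosome 2 at 85136225 to 85139923 and Myct1 (ENSMUSG00000046916) lies on chromosome 10 at 5593775 to 5606904, on GRCm38.

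Other endothelial genes went up in the same hearts. Car4, a carbonic anhydrase of the capillary surface, had 37.5, 39.9, 31.9, 23.9 and 32.6 FPKM with donepezil and 21.5, 20.4, 19.1, 14.2 and 26.2 with saline, where only saline 5 reached into the donepezil range (0.70, limma adjusted p = 0.0358). Sox17, an arterial transcription factor, averaged 10.1 ± 2.0 FPKM with donepezil and 6.63 ± 1.51 with saline (0.58). Rbp7, a retinol-binding protein of microvessels, and S1pr1, a receptor for a lipid of the blood, were named after their values were seen. Rbp7 had 62.6, 65.2, 53.6, 47 and 60.3 FPKM with donepezil and 32.3, 28.2, 35.7, 29.5 and 38.9 with saline, with no overlap (0.80, SE 0.14, limma adjusted p = 0.0104), and S1pr1 averaged 55.6 ± 7.33 FPKM with donepezil and 35.5 ± 6.47 with saline (0.64). The pan-endothelial junction genes did not pass, Pecam1 at -0.01 (interval -0.20 to 0.18) and Cdh5 at -0.17 (-0.40 to 0.07). The 10 endothelial markers summed to between 697 and 843 FPKM with donepezil and between 659 and 789 with saline. Without donepezil 1, 0 of the 36 rose and 2 fell, without donepezil 4, 3 rose and 2 fell, and without both 1 rose and 1 fell.

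Among interferon-induced genes some fell and 0 rose. Of 30 tested genes of interferon-inducible GTPases and antigen presentation 6 fell and 0 rose, with a median of -0.37, and of 30 genes of the type I interferon response 2 fell and 0 rose, with a median of -0.42 and 29 negative values. Guanylate-binding proteins act against microbes inside cells. The windows of Gbp2 and Gbp3 are shown because the interferon-stimulated response motif, GAAA and its direct repeat with 2 bases between them, was found in 11 of the 22 tested GTPase and antigen genes with a window and in 9 of 22 of the type I list, against 3.46% of all windows and 3.04% of tested genes. Both matches below are on the other strand, and they were chosen after their values were seen. The match begins 59 bases before the start in Gbp2, and in Gbp3 a pair of overlapping matches begins 45 and 39 bases before it.
Gbp2, chr3:142620574-142620643, plus strand: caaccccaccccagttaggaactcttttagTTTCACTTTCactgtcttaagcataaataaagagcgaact
Gbp3, chr3:142559969-142560043, plus strand: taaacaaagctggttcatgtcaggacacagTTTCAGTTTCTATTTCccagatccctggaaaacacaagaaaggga

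Gbp3 had 2.94, 2.3, 3.68, 4.27 and 3.16 FPKM with donepezil and 3.7, 5.2, 6.64, 6.95 and 9.69 with saline, and donepezil 4 lay above saline 1 (-0.84, SE 0.19, limma adjusted p = 0.037). Gbp4 fell by 0.79, Gbp7 by 0.63 and Gbp2 by 0.54 on the log2 scale, and values of this family are uncertain because reads can be split between near-identical paralogs. Ifi47, a GTPase of the IRG family, had 1.3, 1.19, 1.57, 1.49 and 1.64 FPKM with donepezil and 2.2, 1.83, 3.44, 2.54 and 2.64 with saline, without overlap (-0.62, limma adjusted p = 0.0165). Psmb8, a subunit of the immunoproteasome, fell by 0.34. In the type I list Rtp4, a chaperone of receptors, had 3.63, 2.3, 3.19, 3.25 and 3.06 FPKM with donepezil and 4.37, 4.9, 6.91, 5.8 and 8.0 with saline (-0.84, limma adjusted p = 0.0131), and Ddx58, the sensor RIG-I, averaged 2.28 ± 0.0908 FPKM with donepezil and 3.08 ± 0.263 with saline (-0.36). The regulator Irf7 had a value of -0.65 (limma adjusted p = 0.0528) and Ifit1 one of -0.61 (limma adjusted p = 0.0811), and Isg15 stood at -0.54. Without donepezil 4, 9 of the GTPase and antigen genes and 7 of the type I genes fell. Without donepezil 1, 0 and 1 did, at medians of -0.36 and -0.44, and without both 2 and 1 did.

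Single immune genes also fell. Of 35 genes of NF-kB, cytokines and chemokines 2 fell and 1 rose. Cxcl12, which retains leukocytes, averaged 28.1 ± 4.11 FPKM with donepezil and 38.6 ± 1.82 with saline (-0.46), and Cxcl9, induced by interferon gamma, 0.915 ± 0.198 FPKM with donepezil and 2.0 ± 0.754 with saline (-0.77). Zfp36, which destabilises cytokine messages, rose by 0.71. None of these 3 calls held without donepezil 1 (limma adjusted p = 0.060, 0.0948 and 0.0583) or without both. Timd4, a receptor for dying cells on resident macrophages, had 0.238, 0.154, 0.455, 0.159 and 0.178 FPKM with donepezil and 0.742, 0.643, 0.838, 1.24 and 1.13 with saline, levels near or under 1 FPKM, and all donepezil libraries lay under all saline libraries (-0.94, SE 0.14, limma adjusted p = 0.00345). It was the only one of 14 tested macrophage and monocyte markers that passed: the pan-macrophage marker Adgre1 stood at -0.32, or -0.62 without donepezil 4, Lyve1 at -0.16 and Mrc1 at -0.02. Chosen after their values were seen, Cd274, the checkpoint ligand PD-L1, fell by 0.79, Tnfsf10, the death ligand TRAIL, by 0.80, Pf4 by 0.83, Csf1, the growth factor of macrophages, by 0.60 and Nos2 by 0.63 on the log2 scale. None of these passed without both donepezil 1 and donepezil 4 (limma adjusted p = 0.0732, 0.0511, 0.0698, 0.0567 and 0.0674). The macrophage markers together summed to a median of 319 FPKM with donepezil and 387 with saline, and their part in these falls was not tested.

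Stress pathways gave single genes rather than whole lists. Of 26 genes of the integrated stress response 1 rose: Chac1, which degrades glutathione, had 11.9, 8.19, 12.7, 9.79 and 3.82 FPKM with donepezil and 3.72, 1.71, 2.19, 1.93 and 2.16 with saline (1.72, SE 0.28, limma adjusted p = 0.00786). Chac1 did not pass without both donepezil 1 and donepezil 4 (limma adjusted p = 0.0522). The other members did not pass with all libraries, Atf4 at -0.13, Trib3 at -0.06 and Asns at 0.01, and the list median was 0.01. Ddit3, the stress factor CHOP, had a value of -0.64 (limma adjusted p = 0.058, and 0.0229 without donepezil 4), and Cebpb, another transcription factor of this list, one of 0.70. Of 29 heat shock and endoplasmic reticulum genes Herpud1, which helps discard misfolded proteins, rose by 0.82, a call lost without donepezil 1 and without both. Of 19 p53 targets Cdkn1a, the death receptor gene Fas (1.04) and the autophagy regulator Trp53inp1 (1.1) rose, with a list median of -0.03. Without donepezil 4, 4 rose, but none of the 3 named passed without donepezil 1 (limma adjusted p = 0.102, 0.060 and 0.0517) or without both. Of 30 antioxidant genes 6 rose and 0 fell, with a median of 0.14: besides Mt1, Mt2, Hmox1 and Txnip these were Gclm, of glutathione synthesis, at 9.86 ± 1.52 FPKM with donepezil and 5.92 ± 1.25 with saline (0.70), and catalase, Cat, at 110.0 ± 8.79 FPKM with donepezil and 87.7 ± 6.83 with saline (0.32). This count was 6 without donepezil 4 and 2 without donepezil 1 or without both.

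Among 16 genes of xenobiotic metabolism 2 rose and 1 fell. Cyp1b1, a cytochrome P450 of steroids and fatty acids, had 5.27, 7.61, 3.85, 7.04 and 3.4 FPKM with donepezil and 1.74, 1.27, 2.26, 1.3 and 1.27 with saline (1.48, SE 0.20, limma adjusted p = 0.00228). Aox1, an aldehyde oxidase, averaged 6.15 ± 0.94 FPKM with donepezil and 3.77 ± 0.417 with saline (0.63). Cbr2, a carbonyl reductase, had 7.2, 7.63, 9.34, 7.69 and 8.07 FPKM with donepezil and 16.1, 14.1, 19.7, 17.8 and 17 with saline (-1.04, SE 0.14, limma adjusted p = 0.00209). No library crossed over in any of the 3 genes, and all 3 still passed without donepezil 1, without donepezil 4 and without both. Of 24 early response genes 3 rose: Zfp36, the AP-1 partner Maff (0.88) and Klf6 (0.42). Without donepezil 4, 4 rose, but none of the 3 passed without donepezil 1 (limma adjusted p = 0.0583, 0.080 and 0.097) or without both.

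Of the largest changes that belong to none of these lists, Gal3st3, which adds sulfate to sugar chains, had 1.49, 2.71, 2.15, 1.64 and 2.48 FPKM with donepezil and 4.34, 6.59, 3.83, 4.51 and 5.91 with saline. Lrrc3b, a leucine-rich repeat protein, had 2.68, 3.48, 2.83, 2.19 and 3.69 FPKM with donepezil and 4.54, 7.65, 5.72, 7.81 and 7.68 with saline. Rtn4r, the receptor of the neurite inhibitor Nogo, had 0.799, 0.242, 0.919, 2.23 and 1.06 FPKM with donepezil and 2.34, 2.75, 2.85, 3.6 and 3.43 with saline. In all 3 genes every donepezil library lay under every saline library, at log2 fold changes of -1.09, -1.04 and -1.28. Lrrc4b (-1.33), Fam78a (-1.23), Phyhip (-1.02) and Inka2 (-0.98), an inhibitor of PAK kinases, fell without overlap too, while Apol10b (-1.0) overlapped at 1 library. Higher, and named after their values were seen, were Bcl2l1, which encodes the survival protein BCL-XL, at 34.9, 34.3, 29.6, 24.3 and 18.8 FPKM with donepezil and 20.8, 9.86, 9.93, 7.94 and 15.8 with saline (1.16), with saline 1 above donepezil 5, and the kinase gene Pim3 (1.01). Sphk1, which makes the lipid ligand of S1pr1, rose by 0.72 and the adenosine receptor Adora2b by 0.72, both at levels near or under 1 FPKM.

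Several lists held no gene that passed. Of 19 tested cholinergic and vagal genes 0 passed by limma, with 3 at an unadjusted p under 0.05 and a median of -0.07. Over all 13396 genes 2162, or 16.1%, were at an unadjusted p under 0.05. Ache, the gene of the drug's target, had 0.461, 0.334, 0.599, 0.486 and 0.432 FPKM with donepezil and 0.452, 0.576, 0.633, 0.891 and 0.66 with saline (-0.24, interval -0.52 to 0.04). Bche, which encodes the related butyrylcholinesterase, averaged 2.59 ± 0.0799 FPKM with donepezil and 2.94 ± 0.659 with saline (-0.13, -0.36 to 0.10). Chrm2, the muscarinic receptor of the heart, averaged 9.8 ± 2.31 FPKM with donepezil and 9.7 ± 1.82 with saline (-0.0015, -0.38 to 0.37), and Kcnj3, a subunit of the potassium channel it opens, 4.41 ± 1.21 FPKM with donepezil and 5.26 ± 1.52 with saline (-0.22). Chrna7 was not tested, at most 0.0716 FPKM in any donepezil library and 0.0295 in any saline library. Ccrl2, a chemokine-binding receptor, had a value of 0.32 with an interval of -0.08 to 0.73.

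Ion channel subunits (32 tested, median -0.04), calcium handling (28, 0.05), adrenergic and cyclic nucleotide signalling (31, 0.02), cholesterol and fatty acid synthesis (27, -0.05), cell cycle (24, -0.19), nuclear genes of oxidative phosphorylation (33, -0.06) and mitochondrially encoded messages (13, 0.13) likewise had 0 genes that passed by limma. At an unadjusted p under 0.05 they had 6, 2, 4, 4, 4, 0 and 0 genes, to be read against the same 16.1% of all genes. Without donepezil 4, 1 gene of cholesterol and fatty acid synthesis and 1 of the cell cycle fell. The calcium pump Atp2a2 stood at 0.14 (-0.16 to 0.43), the release channel Ryr2 at 0.09 (-0.26 to 0.44) and the beta-adrenergic receptor Adrb1 at -0.46 (-0.82 to -0.11). Mitochondrially encoded reads were 23.1 ± 3.41% of the total in donepezil libraries and 21.7 ± 1.6% in saline libraries (SD over 5 libraries each), a difference of 1.41 percentage points (exact two-sided permutation p = 0.413). Without donepezil 4 that difference was 2.85 points (exact two-sided permutation p = 0.0317).

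In matrix genes the result turned on donepezil 4. Of 36 tested collagen and matrix genes 0 passed by limma with all libraries, with 2 at an unadjusted p under 0.05, and the median was 0.14. Without donepezil 4 the median was -0.44 and 2 fell. Col1a1, the main fibrillar collagen, had 20.1, 13.7, 16.8, 229 and 16.9 FPKM with donepezil and 29.3, 22.4, 42.9, 22.7 and 13.6 with saline. Postn, secreted by activated fibroblasts, had 5.29, 3.38, 6.51, 155 and 6.68 FPKM with donepezil and 15.3, 4.36, 32.1, 10.9 and 3.37 with saline. In both, the other 4 donepezil libraries lay below the saline median, and only donepezil 4 was far above it. The cartilage matrix gene Comp was at 54.9 FPKM and Cthrc1 at 40.3 in donepezil 4, against at most 1.67 and 0.081 in the other donepezil libraries and 6.06 and 1.5 in the saline libraries. Of 23 hypertrophic stress genes 0 passed by limma, with 1 at an unadjusted p under 0.05, and their median was 0.21 with donepezil 4 and -0.01 without it. Nppb, the B-type natriuretic peptide gene, had 209, 23.8, 131, 477 and 171 FPKM with donepezil and 127, 94.3, 512, 335 and 183 with saline, and the groups overlapped.

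Clock genes varied widely inside each group. Of 23 tested members Per1, which glucocorticoids also induce, rose and 0 fell, and the list median was 0.01. Per1 did not pass without donepezil 1 (limma adjusted p = 0.0684) or without both. Arntl, the clock activator BMAL1, had 2.43, 2.79, 0.693, 0.751 and 2.79 FPKM with donepezil and 0.27, 0.469, 0.873, 0.714 and 2.66 with saline. Dbp, an output gene that peaks at another time of day, had 6.17, 8.29, 25.5, 21.6 and 7.87 FPKM with donepezil and 22.6, 40.1, 27, 28.5 and 3.86 with saline. Donepezil 1, 2 and 5 and saline 5 had the higher Arntl and the lower Dbp, and the other 6 libraries the reverse. The clock genes Nr1d1 and Per2 did not follow this split. Nr1d1 was at 16.4 to 18.8 FPKM across the donepezil libraries but at 2.51 in saline 5. Per2 was at 3.66, 4.29 and 3.32 FPKM in donepezil 1, 2 and 5 but at 9.58 in saline 5. The time of day at which hearts were taken is not given in the labels, and its part in the genes above was not tested.

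Encenicline hearts give a second set of banded hearts on another cholinergic drug, and the comparison with them shares the donepezil libraries. Of 13396 genes 125 (0.933%) passed in donepezil against encenicline by limma with the groups by title. Encenicline 1 carries donepezil in its treatment field and donepezil 1 carries saline: without these libraries 27 genes (0.202%) passed, and with groups by that field 0 did by limma, with 1391 at an unadjusted p under 0.05. The values that follow use the titles. Rasd1 averaged 5.79 ± 1.73 FPKM with donepezil and 1.84 ± 0.427 with encenicline (1.39, SE 0.19, limma adjusted p = 0.00267). Cyp1b1 averaged 5.43 ± 1.87 FPKM with donepezil and 1.6 ± 0.363 with encenicline (1.46, limma adjusted p = 0.00307). Txnip averaged 310.1 ± 21 FPKM with donepezil and 179 ± 49.3 with encenicline (0.83, limma adjusted p = 0.0217). Ehhadh averaged 10.4 ± 2.55 FPKM with donepezil and 5.08 ± 1.67 with encenicline (0.97, limma adjusted p = 0.0402). These 4 genes were higher in the donepezil hearts, whereas Alas1 was lower, at 17.3 ± 4.12 FPKM with donepezil and 28 ± 1.9 with encenicline (-0.70, limma adjusted p = 0.0291). Cited4, Irx4, Emcn, Myct1 and Timd4 were lower with donepezil than with encenicline as well, at -1.22, -0.72, -0.59, -0.57 and -0.73, each past the test. Of these 10 genes Rasd1, Cyp1b1, Cited4 and Irx4 also passed without donepezil 1 and encenicline 1, and the other 6 did not. Other genes did not pass: Bnip3 averaged 103 ± 20.7 FPKM with donepezil and 76.1 ± 2.46 with encenicline (0.42, limma adjusted p = 0.147), Fkbp5 had a difference of 0.46 (limma adjusted p = 0.41) and Kdr of -0.31 (limma adjusted p = 0.395). For the interferon genes the differences were -0.21 for Gbp3, -0.23 for Rtp4 and 0.04 for Ddx58, with limma adjusted p-values of 0.63, 0.507 and 0.827. By list medians the encenicline hearts also lay below the saline hearts, and those same saline libraries serve in donepezil against saline. None of Gbp3, Rtp4 and Ddx58 passed in encenicline against saline (limma adjusted p = 0.499, 0.428 and 0.368). The median log2 fold change, encenicline over saline, was -0.47 in the type I list and -0.28 in the GTPase and antigen list. In the glucocorticoid-induced list it was 0.33.

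Of 109 genes that passed and were looked at singly, 29 did so in every alternative in which they were tested but the grouping by the treatment field, in which 0 genes passed by limma, with 1323 at an unadjusted p under 0.05. Among those with higher values these include Pdk4, Ucp3, Angptl4, Rasd1, Cyp1b1, Ehhadh, Cebpd, Txnip, Fbxo32, Bnip3, Myc, Rbp7, Glul and Aox1. Among those with lower values they are Cited4, Mycn, Fam78a, Gal3st3, Lrrc3b, Cbr2, Phyhip, Inka2, Alas1, Rtp4, Emcn, Timd4, Myct1 and Irx4.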

How the data were processed

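Total RNA from heart was sequenced, per the labels, which do not say which part of the heart was taken. The authors deposited FPKM values per gene, and the submitters' processing notes name HISAT, featureCounts 1.5.0-p3, DESeq 1.8.3 and GRCm38 with no role or order. Reads were recovered from FPKM and gene length, each within 0.05 of a whole number. Strand use is not given in the sources used here, and 21 of 161 named tested genes overlap another tested gene, 14 of them passed, among them Bnip3, Cdkn1a, Cebpd, Fam78a, G0s2, Gabarapl1, Lrrc3b, Myh7b, Plin4 and Rtp4, so their values are uncertain. Spreadsheet date symbols were mended in 27 genes.

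Genes at 0.5 FPKM in 5 libraries were tested with limma 3.58.1 (R 4.3.3) on log2(FPKM + 0.5), with trend, in one fit over 15 libraries. The pseudocount understates changes of low genes. Groups followed the titles. Mitochondrially encoded shares were compared by an exact two-sided permutation test.

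Named genes were the 15 highest and 15 lowest changes among protein-coding genes that passed with a mean of at least 1 FPKM, up to 6 passed members of each list, and Chrna7, Ache, Bche, Chrm2 and Ccrl2. Other names were chosen after their values were seen. The members and lists were chosen with earlier results of these data known. Several genes picked by this rule are left unreported. Alternatives were other pseudocounts, filters, scalings, weights, a replicate block, voom, the treatment field, and leaving out libraries. The method was tested on simulated data.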

Additional observations from a re-analysis of the deposited data

Results flagged for a closer look

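Of 308 groups of 5 libraries looked at, 29 had 1 library far from the other 4. For groups picked without regard to their values, chance alone gives about 1 such flag in 20. Many of these genes were named after their values were seen, so that rate cannot be set against the 29. Donepezil 4 accounts for 12 of the 29 flags. It had reads in 25893 genes, against 19789 to 20439 in the other donepezil libraries, and higher matrix, stress and macrophage genes: Col1a1 at 229 FPKM, Comp at 54.9, Cthrc1 at 40.3, Postn at 155, Nppa at 857 and Adgre1 at 8.83. The same library had the lowest values of its group in muscle and fuel genes, with Atp2a2 at 1403.0 FPKM, Ryr2 at 27.4, Lpl at 307, Slc2a4 at 76.4 and Ehhadh at 5.84.

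Donepezil 1 stood above its group in Fbxo30 (7.69 FPKM), Maff (16.1) and Chrna7 (0.0716, against at most 0.0149 in the others). Fkbp5 was at 22.5 FPKM in donepezil 2, above 11 to 14.3 in the other donepezil libraries. Timd4 was at 0.455 FPKM in donepezil 3, the highest of its group.

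Among the saline libraries, saline 1 was high in 4 genes. Fkbp5 was at 12.2 FPKM in it, Fam107a at 8.15, Chac1 at 3.72 and Cthrc1 at 1.5. The first 3 of these were higher or had positive values in the donepezil hearts. Saline 2 was high in Adrb1 (14.0 FPKM) and Tcf15 (84.1) and low in Sgk1 (17.7). Saline 3 was high in Comp (6.06 FPKM) and Rhou (3.84). Saline 5 was high in Arntl (2.66 FPKM) and Errfi1 (14.3) and low in Cpt1a (9.25).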

How the results depend on the processing

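With all 10 libraries 284 genes passed. The number was 119 with no filter on low values (31527 genes tested), 162 with TPM, 63 with only the donepezil and saline libraries in the fit, 750 with weights and a robust fit, 82 without donepezil 1 and encenicline 1, and 0 by the treatment field, where the smallest limma adjusted p was 0.14 and 1323 genes had an unadjusted p under 0.05. Without both donepezil 1 and donepezil 4, an alternative added after the data were seen, it was 90. Leaving out 1 library at a time gave 105 to 409. The count moved by over 1.5 times without donepezil 1 (105), donepezil 2 (148), donepezil 3 (144), saline 2 (132) and saline 4 (138). The cause of these moves was not tested. Pseudocounts, the stricter filter, the median-ratio and quantile scalings, leaving out mitochondrially encoded reads and voom gave 278 to 315. With a replicate block 298 genes passed, 232 of them also without it. The numbers do not pair the libraries: same-numbered donepezil and saline libraries correlated at -0.0873 to 0.139 in their deviations, and 0 of 5 donepezil libraries correlated best with their own number. For 109 genes that passed and that the naming rule covers or that were named after their values were seen, all 2720 values under alternatives kept the direction, and 745 no longer passed. The difference in mitochondrially encoded reads ranged from 0.638 to 2.85 percentage points when 1 library was left out, and was 1.92 by the treatment field (exact two-sided permutation p = 0.286). Rescaled to TPM, the list medians were 0.88 for glucocorticoid-induced genes, 0.36 for FoxO targets, 0.30 for PPAR genes and -0.49 for the type I interferon response. Of donepezil against encenicline, 125 genes passed by title, 27 without donepezil 1 and encenicline 1, and 0 by the treatment field, both alternatives added after the data were seen.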
